A study of Mus musculus with 14 samples.

Results

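The genes described here lie on mouse chromosome 16 just before the segment that Ts1Cje mice carry in an extra copy. They were defined by position, with earlier results of these data known. The rule took named probes of the authors' deposited table of normalized values that start between 75000000 and 90200000 on chromosome 16 (mm9 build). Atp5j and Mrpl39 were left out. This window held 110 probes for 82 genes, of 24559 gene symbols on the array. Of the 82 genes, 32 were detected well enough to be tested, among 14170 tested genes in all. The tested genes lay between 439 kb and 14471 kb before the next named probe, that of Sod1, and the 351 tested genes of chromosome 16 before the window and 68 past it served for comparison.

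Gene expression was measured with 1-colour Agilent arrays, 1 array per sample, in 14 mouse skeletal muscle samples on the C57BL/6 background. The groups were EDL (extensor digitorum longus, a fast-twitch hind limb muscle) of Ts1Cje mice and of disomic WT littermates, with 3 arrays each, and soleus (a slow-twitch muscle) of the same genotypes, with 4 arrays each. Whole muscle was used, so that fewer cells of a type and less RNA per cell cannot be told apart. No agent was given, and the labels used here state no age or sex.

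Ts1Cje mice are used to model Down syndrome. Their extra segment of distal chromosome 16 matches part of human chromosome 21, and the genes before that segment also have counterparts on human chromosome 21 but remain in the normal copy number in these mice. They include App, whose protein is cut to give the amyloid beta peptide, the transcription factors Bach1 and Gabpa, the nuclear receptor corepressor Nrip1, matrix proteases, enzymes that attach or remove ubiquitin, and a cluster of genes for keratin-associated proteins, which build the hair shaft. The comparison of genotypes asks how these genes behaved in muscle next to a triplicated segment.

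Several probes in the keratin cluster were near-identical copies, and their sequences are given because the only neighbour whose genotype difference passed the test came from one of them. The first set holds the 60 bases of the probes for LOC102637746 (chr16:89211886-89211945, mm9, plus strand), Gm35257 (chr16:89261268-89261327, plus strand) and Gm34396 (chr16:89183686-89183745, plus strand), each annotated in the deposited table as a predicted gene like Krtap20-2. Capitals mark the 8 positions at which the 3 probes are not all alike.
LOC102637746: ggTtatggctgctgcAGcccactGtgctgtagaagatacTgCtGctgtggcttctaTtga
Gm35257: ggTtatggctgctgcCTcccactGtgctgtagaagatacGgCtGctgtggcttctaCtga
Gm34396: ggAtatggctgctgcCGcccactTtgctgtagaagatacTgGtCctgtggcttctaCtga
Counted from 1 at the 5′ end, the LOC102637746 and Gm35257 probes shared 56 bases and differed by A16C, G17T, T40G and T57C, where the LOC102637746 base stands first.

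The second set holds the probes of Krtap19-4 (chr16:88885057-88885116, minus strand) and Krtap19-5 (chr16:88896479-88896538, minus strand), shown because both gave signal on all 14 arrays. They shared 52 of 60 bases, and capitals mark the 8 that differ.
Krtap19-4: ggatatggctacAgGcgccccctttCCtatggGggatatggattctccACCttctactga
Krtap19-5: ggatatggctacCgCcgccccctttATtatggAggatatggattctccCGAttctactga
Signal of such copies may be shared between probes, so that each of these genes is uncertain as a source of its own signal.

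Values below are levels, the log2 of a probe's signal minus the log2 75th percentile of its array, and a change is a difference of mean levels with its standard error (SE). Per array, 41.3% to 52.9% of probes passed the scanner's background flag and 0 were saturated. The number of arrays limits the precision. Genes were called at a Benjamini-Hochberg adjusted p under 0.05 from limma fitted across all 14170 genes. The muscles matched their labels, since of 10 fast-fibre and 9 slow-fibre markers, all measured, 9 and 9 differed between WT muscles in the direction of their names. EDL arrays of 1 group were unlike in the mean of the slow-fibre markers, at 1.83 to 4.76 in WT and 2.28 to 4.76 in Ts1Cje. The adipocyte mean ran from -1.51 to 1.69 in WT EDL and from 0.29 to 2.50 in WT soleus. The part of this spread in the values of the neighbours was not tested. The 6 EDL arrays and 1 Ts1Cje soleus array lay on 1 slide and the other 7 soleus arrays on another, so that the muscle comparisons rest on 1 array for any separation from the slide.

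Next to the segment, the neighbours showed no common shift with genotype. Their median log2 change, Ts1Cje over WT, was -0.0029 in EDL and -0.058 in soleus over 32 genes. Over all 14170 genes the medians were 2.5e-05 and 0.071. Past the window, the 68 genes of the segment had medians of 0.50 in EDL and 0.63 in soleus, near the log2 of 3/2, which is 0.585. In EDL 16 neighbours were higher and 16 lower in Ts1Cje, and in soleus 14 were higher and 18 lower.

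**Figure D1:**
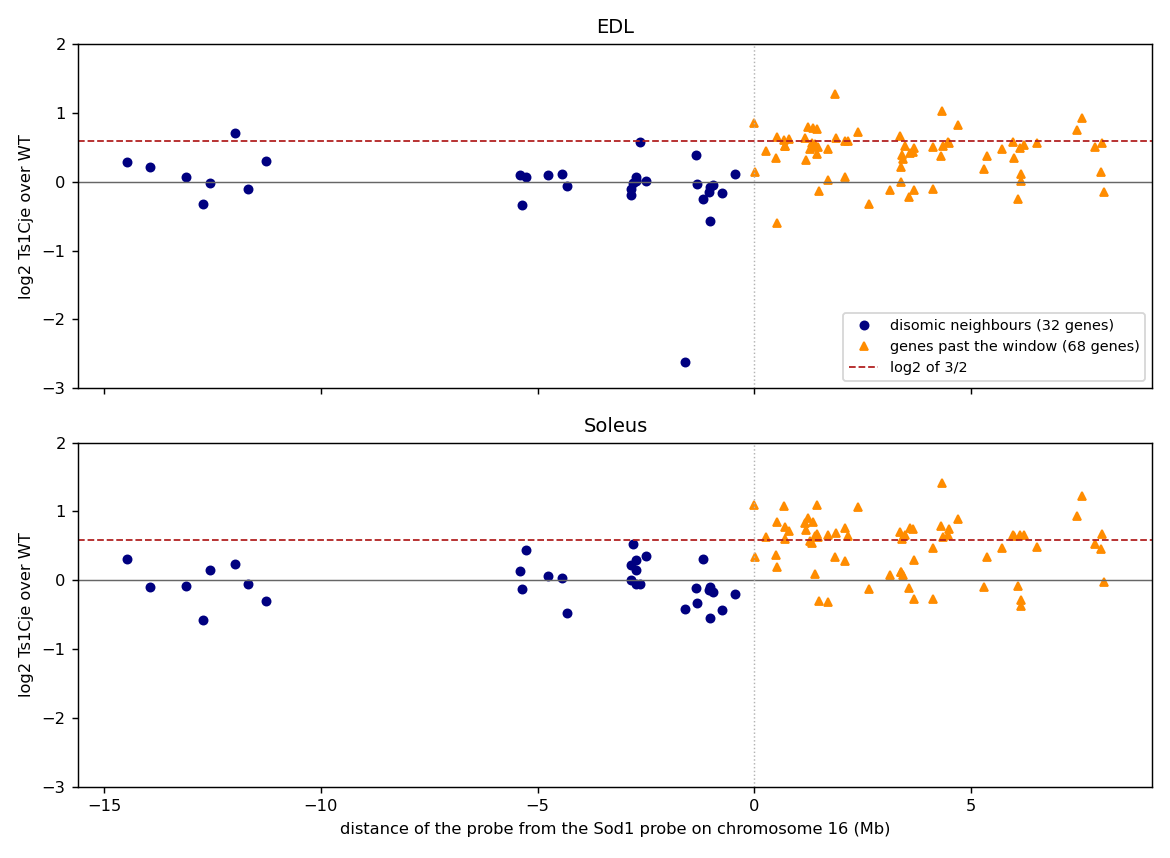
Log2 change, Ts1Cje over WT, of each tested gene on chromosome 16 from the window on, against the distance of its probe from the Sod1 probe in Mb, in EDL (top) and soleus (bottom). Circles are the 32 disomic neighbours, triangles the 68 genes past the window, and the dashed line is the log2 of 3/2 (0.585). The neighbours scatter around 0 with medians of -0.0029 and -0.058, and the genes past the window have medians of 0.50 and 0.63.

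No neighbour was called by genotype within a muscle. The background of calls was 0.00706% of all genes in EDL (1 gene) and 0.247% in soleus (35 genes, 0.176% higher and 0.0706% lower), so that a count of 0 among 32 carries little information by itself. At an unadjusted p under 0.05 the neighbours numbered 2 in EDL and 4 in soleus, which is 6.25% and 12.5% of the 32, beside 2.88% and 13.6% of all genes. The lowest adjusted p of any neighbour was 0.479 in EDL and 0.0861 in soleus. For the mean of both muscles, with 0.289% of all genes called (0.261% higher and 0.0282% lower), 1 neighbour was called, LOC102637746, which was lower. For the difference between the genotype effects in EDL and in soleus, 0 of 14170 genes were called by limma (454 at an unadjusted p under 0.05). Read from the kept probe of highest mean for each gene, 0 of the neighbours reached an unadjusted p under 0.05.

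The intervals bound what the arrays could miss. The 95% interval of the change ended below 0.585 for 17 of the 32 neighbours in EDL, for 20 in soleus and for 27 in the mean of both muscles, and the other intervals reached that size. The neighbours had a median SE of 0.25 in EDL and 0.22 in soleus, against 0.18 and 0.16 over all genes. In EDL 0 neighbours were higher and 1 was lower in all Ts1Cje arrays, with 2.83% and 2.77% of all genes doing so. In soleus 2 were higher (App and Bach1) and 2 lower (LOC102637746 and Mir99ahg), with 6.1% and 2.29% of all genes doing so. Past the window, 36 of 68 genes in EDL and 41 in soleus were higher in all Ts1Cje arrays and 0 were lower.

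**Figure D2:**
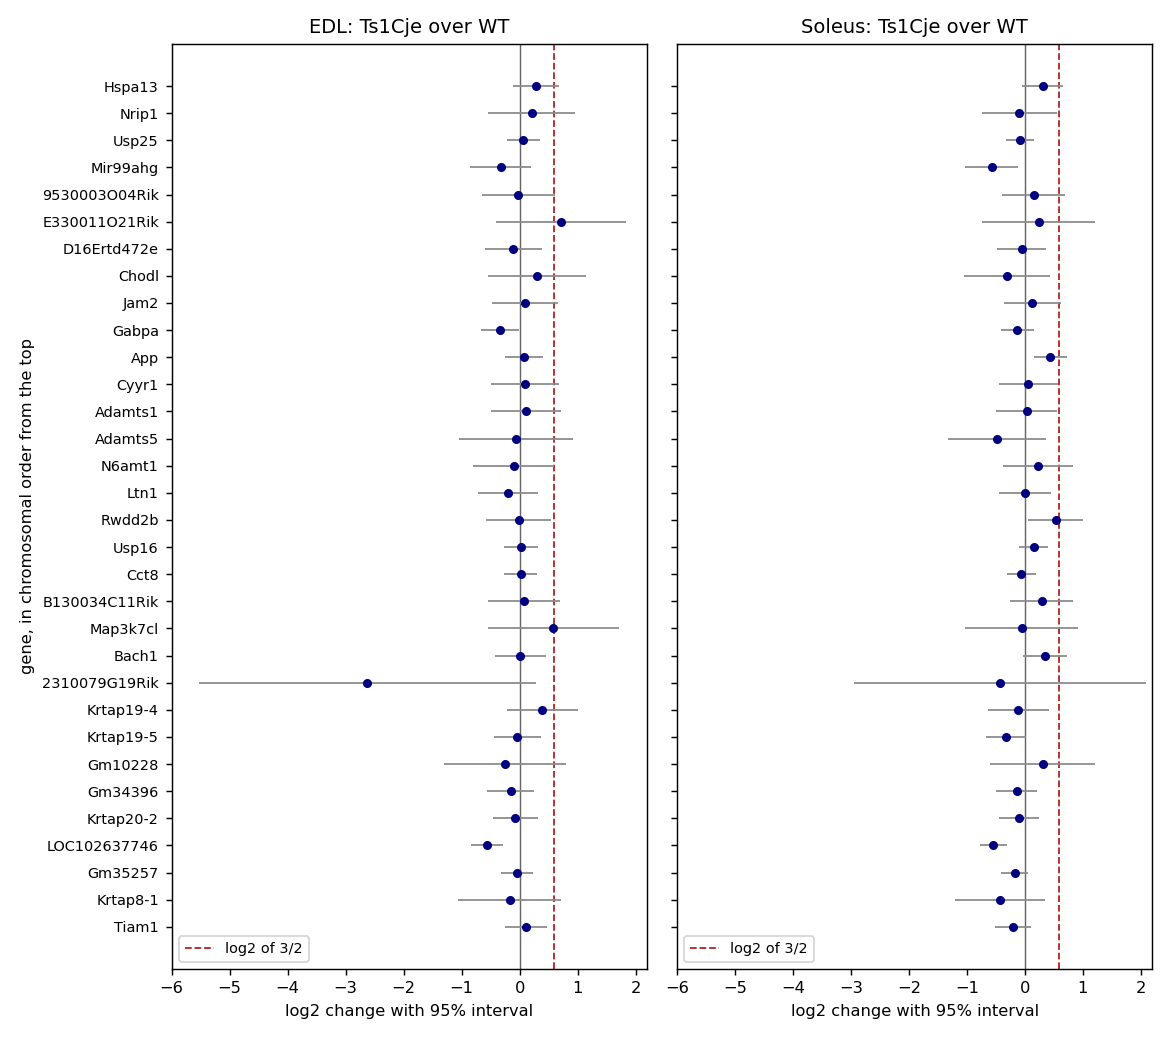
Log2 change, Ts1Cje over WT, of the 32 tested neighbours in EDL (left) and soleus (right), in chromosomal order from the top, with lines for the 95% interval from limma. The grey line is 0 and the dashed line the log2 of 3/2 (0.585). In 17 genes in EDL and 20 in soleus the interval ends below the dashed line. The widest interval is that of 2310079G19Rik.

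The tested genes nearest the window's end on either side, Tiam1 and Sod1, gave different values. Tiam1, 439 kb before the Sod1 probe, is an exchange factor that activates the small GTPase Rac1. Its levels were -0.39, -0.11 and -0.23 in Ts1Cje EDL, against -0.17, -0.24 and -0.65 in WT EDL, and -0.13, 0.025, -0.34 and 0.089 in Ts1Cje soleus, against 0.38, 0.072, -0.12 and 0.12 in WT soleus. The genotypes overlapped in both muscles (log2 change 0.11, SE 0.16, in EDL and -0.20, SE 0.14, in soleus). Sod1 encodes the cytosolic superoxide dismutase, is no member of the set, and had been targeted in the line in which the Ts1Cje translocation arose. It had levels of 7.23, 6.98 and 7.32 in Ts1Cje EDL, against 6.29, 6.41 and 6.27 in WT EDL. In soleus Sod1 lay at 6.87, 6.94, 7.12 and 6.94 in Ts1Cje, against 5.67, 6.15, 5.92 and 5.77 in WT. Every Ts1Cje array was above every WT array of the same muscle for Sod1. Its log2 changes were 0.86 in EDL (adjusted p = 0.0995) and 1.09 in soleus (adjusted p = 0.00318). The next tested genes past Sod1 varied. Scaf4 changed by 0.14 in EDL and 0.34 in soleus, Hunk by 0.44 and 0.63, and Mis18a by 0.34 and 0.36. Mrap changed by -0.60 in EDL and 0.19 in soleus, and Urb1 by 0.65 and 0.85.

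Within the window the 32 genes fell into 3 blocks separated by stretches without tested genes. The 8 genes farthest from the segment had median changes of 0.14 in EDL and -0.068 in soleus, and the 14 genes of the middle block, with App and Bach1, had 0.022 and 0.095. The 10 nearest genes, made up of the keratin cluster and Tiam1, had medians of -0.12 and -0.19. Of these 10, 8 were lower in Ts1Cje EDL and 9 in Ts1Cje soleus, next to 7083 and 5278 of all 14170 genes. No test was made of this, and 1 of the 10 was called, in the mean of both muscles.

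App encodes a membrane protein that secretases cleave. In soleus App lay at 4.26, 4.26, 4.48 and 4.20 in Ts1Cje, against 3.64, 4.11, 3.89 and 3.80 in WT. All Ts1Cje soleus arrays were above all WT ones, with group means 1.35-fold apart (log2 change 0.44, SE 0.13, adjusted p = 0.265), and the 95% interval ran from 0.15 to 0.72. In EDL the levels were 3.84, 4.02 and 4.33 in Ts1Cje, against 3.81, 4.07 and 4.08 in WT, with overlapping groups and a log2 change of 0.075 (SE 0.15). The difference in App did not pass the test, and neither did the difference between its effects in EDL and soleus (log2 change -0.36, SE 0.20, adjusted p = 0.988). Within the slide that held 3 Ts1Cje and all 4 WT soleus arrays, the change in App was 0.45 (SE 0.14, adjusted p = 0.277).

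The Ts1Cje soleus arrays also differed from WT in fibre-type markers. The mean level of the 10 fast-fibre markers lay between 7.04 and 7.38 in Ts1Cje soleus, against 7.85 to 8.31 in WT soleus, and 3 of them fell with 0 rising. The mean of the 9 slow-fibre markers lay between 8.80 and 8.93 in Ts1Cje soleus, against 8.37 to 8.69 in WT soleus, and 0 of them were called. The mean of the 4 measured red blood cell markers of 6 was also apart, at 2.72 to 3.32 in Ts1Cje soleus and 2.50 to 2.67 in WT soleus. In EDL the macrophage markers were apart, with a mean of 7 markers of 8 between 0.59 and 0.73 in Ts1Cje and between 0.28 and 0.55 in WT. The means of the endothelium, fibroblast, adipocyte, Schwann cell, smooth muscle and satellite cell lists overlapped between genotypes in both muscles, and 0 of their genes were called by genotype. The part of these cell-type differences in the values of the neighbours was not tested.

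Other secreted and membrane proteins of the window overlapped between genotypes in both muscles. Jam2, an adhesion molecule of endothelial junctions, had levels of 1.21, 1.71 and 2.07 in Ts1Cje EDL, against 1.33, 1.60 and 1.78 in WT EDL, and 1.95, 1.44, 1.87 and 2.09 in Ts1Cje soleus, against 1.11, 2.01, 1.93 and 1.80 in WT soleus. The 2 kept probes of Jam2 disagreed in sign, at 0.092 and -0.11 in EDL and at 0.13 and -0.21 in soleus. Adamts1, a secreted protease that cuts proteoglycans such as versican, lay at 2.98, 2.62 and 2.75 in Ts1Cje EDL, against 3.30, 2.42 and 2.30 in WT EDL. In soleus Adamts1 was at 2.08, 2.29, 2.62 and 2.98 in Ts1Cje, against 2.31, 2.90, 2.44 and 2.20 in WT, and its change was 0.11 in EDL and 0.032 in soleus. Adamts5 is an aggrecan-cutting protease of the same family. Its levels were -0.51, -1.12 and -1.95 in Ts1Cje EDL, against -0.91, -1.42 and -1.07 in WT EDL, and -1.34, -1.77, -2.51 and -1.80 in Ts1Cje soleus, against -0.29, -2.11, -1.26 and -1.82 in WT soleus (soleus change -0.48, SE 0.39). The 2 kept probes of Adamts5 disagreed in sign in soleus, at -0.48 and 0.18. Chodl (chondrolectin, a membrane lectin that also stood in the satellite cell marker list) averaged -1.64 ± 0.98 in Ts1Cje EDL and -1.94 ± 0.43 in WT EDL (SD, n = 3 each), and Cyyr1, a membrane protein rich in cysteine and tyrosine, averaged 0.48 ± 0.24 in Ts1Cje EDL and 0.39 ± 0.31 in WT EDL (SD, n = 3 each). On these probes neither separated the genotypes in EDL or soleus. A further kept probe of Chodl had changes of 0.48 (SE 0.26) in EDL and -0.44 (SE 0.22) in soleus. In limma fitted over all kept probes, its difference of effects was 0.92 (SE 0.34, adjusted p = 0.977). In that fit it was called between WT muscles, lower in EDL (log2 change -0.76, adjusted p = 0.035).

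Among the regulators of transcription, Bach1 represses heme oxygenase and other oxidant-response genes when heme is low. Its soleus levels were 1.04, 1.17, 1.20 and 1.13 in Ts1Cje, against 1.03, 0.79, 0.65 and 0.66 in WT. The groups did not overlap, with the lowest Ts1Cje array at 1.04 and the highest WT array at 1.03, and the change did not pass the test (log2 change 0.35, SE 0.18, adjusted p = 0.394). In EDL Bach1 lay at 1.75, 1.14 and 1.30 in Ts1Cje, against 1.89, 1.11 and 1.16 in WT, with a log2 change of 0.013 (SE 0.20).

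Gabpa is the DNA-binding subunit of GABP, which acts on nuclear genes of mitochondria and on genes of the neuromuscular junction. It lay at 0.19, -0.081 and 0.18 in Ts1Cje EDL, against 0.52, 0.16 and 0.62 in WT EDL, where 1 WT array fell within the Ts1Cje range (-0.33, SE 0.15). In soleus its levels were 0.53, 0.50, 0.33 and 0.41 in Ts1Cje, against 0.42, 0.42, 0.57 and 0.87 in WT. A further probe of Gabpa gave -0.012 in EDL and -0.17 in soleus as log2 changes. Nrip1, a corepressor of nuclear receptors that restrains oxidative metabolism in muscle, had levels of 1.67, 1.52 and 1.32 in Ts1Cje EDL, against 2.04, 0.64 and 1.20 in WT EDL. Its soleus levels were 1.1, 0.93, 0.10 and 0.58 in Ts1Cje, against 1.21, 0.19, 0.82 and 0.87 in WT, and the change was 0.21 in EDL and -0.094 in soleus, with another probe at 0.011 and 0.39.

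**Figure D3:**
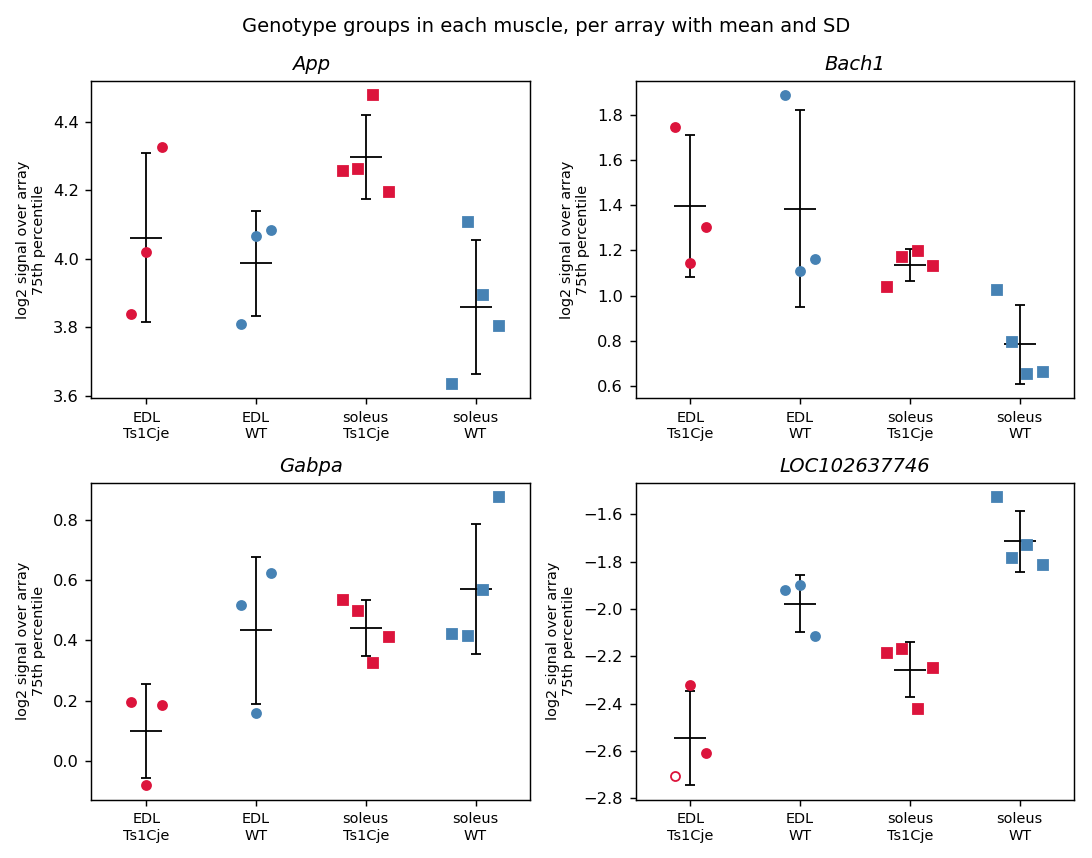
Levels (log2 signal over the array's 75th percentile) of App, Bach1, Gabpa and LOC102637746 in the 4 groups, 1 point per array, with bars for the mean and SD. Circles are EDL and squares soleus, red is Ts1Cje and blue WT, and an open point is an array on which the probe was not well above background. LOC102637746 lies below WT on every Ts1Cje array of both muscles, and App and Bach1 separate the genotypes in soleus and overlap in EDL.

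None of the genes of ubiquitin handling and protein folding was called between genotypes in limma's test. Usp16 removes ubiquitin from histone H2A, and its levels were 3.97, 3.67 and 4.16 in Ts1Cje EDL, against 3.88, 3.93 and 3.92 in WT EDL. In soleus Usp16 was at 3.55, 3.87, 3.81 and 3.72 in Ts1Cje, against 3.52, 3.74, 3.63 and 3.44 in WT. The change was 0.028 (SE 0.13) in EDL and 0.15 (SE 0.12) in soleus, and both intervals ended below 0.585, at 0.32 and 0.41. Cct8, a subunit of the chaperonin that folds actin and tubulin, lay at 3.74, 3.59 and 3.58 in Ts1Cje EDL, against 3.59, 3.49 and 3.79 in WT EDL. Its soleus levels were 3.63, 3.64, 3.37 and 3.32 in Ts1Cje, against 3.63, 3.33, 3.62 and 3.63 in WT. Its 95% interval reached 0.30 in EDL and 0.19 in soleus.

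Hspa13, an Hsp70 family member of microsomes, lay at 0.27, -0.12 and 0.13 in Ts1Cje EDL, against -0.079, -0.28 and -0.21 in WT EDL, and at 0.35, 0.028, -0.13 and -0.51 in Ts1Cje soleus, against -0.50, -0.47, -0.33 and -0.18 in WT soleus. Its changes of 0.28 and 0.31 had the same sign in both muscles and did not pass the test (mean of both muscles 0.30, SE 0.12, adjusted p = 0.489). Ltn1 is the ubiquitin ligase of ribosome quality control, which marks peptides stuck on stalled ribosomes. Its levels were -0.94, -1.23 and -1.03 in Ts1Cje EDL, against -0.85, -0.79 and -0.97 in WT EDL, and -2.25, -1.06, -1.42 and -1.51 in Ts1Cje soleus, against -1.44, -1.93, -1.52 and -1.39 in WT soleus. The genotypes overlapped in both muscles for Hspa13 and Ltn1.

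N6amt1 is the catalytic part of a methyltransferase that acts on a translation termination factor. It lay at -2.37, -2.56 and -2.87 in Ts1Cje EDL, against -2.96, -2.03 and -2.51 in WT EDL, and at -2.02, -1.74, -2.50 and -2.12 in Ts1Cje soleus, against -1.50, -2.69, -2.79 and -2.29 in WT soleus. It was not well above background on 1 array of each EDL group. Rwdd2b, an RWD domain protein, had soleus levels of -0.28, -0.33, -0.089 and -0.83 in Ts1Cje, against -0.71, -1.33, -1.13 and -0.48 in WT (log2 change 0.53, SE 0.22, adjusted p = 0.341), and EDL levels of -1.0, -0.86 and -0.67 in Ts1Cje, against -0.41, -1.25 and -0.81 in WT. The soleus groups of Rwdd2b overlapped in 1 Ts1Cje array. Mir99ahg is a long RNA that hosts microRNA genes. Its soleus levels were -2.34, -2.95, -2.29 and -2.26 in Ts1Cje, against -2.18, -2.05, -1.50 and -1.83 in WT, and the groups did not overlap, but the change did not pass the test (log2 change -0.57, SE 0.21, adjusted p = 0.302). In EDL its levels were -2.58, -2.65 and -2.31 in Ts1Cje, against -2.64, -1.77 and -2.15 in WT, and 2 Ts1Cje arrays were not well above background.

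LOC102637746 was the neighbour that differed by genotype past the threshold. In EDL it lay at -2.70, -2.32 and -2.61 in Ts1Cje, against -1.92, -1.90 and -2.11 in WT. In soleus it lay at -2.18, -2.17, -2.42 and -2.25 in Ts1Cje, against -1.53, -1.79, -1.73 and -1.82 in WT. Every Ts1Cje array was below every WT array of the same muscle, and the gene fell over both muscles, being 1.47-fold lower (log2 change -0.55, SE 0.084, adjusted p = 0.0116). The call was lost with the replicate number as a block (adjusted p = 0.0838), a fit in which same-numbered soleus arrays did not vary together. It was also lost with a trended robust variance (0.173) and without the filter on dim probes (0.0612). With normexp background correction it was lost too, at a change of -0.13 (adjusted p = 0.927). The signal was dim, a range in which the offset of normexp shrinks changes, and 1 Ts1Cje EDL array was not well above background.

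The genes of the near-identical probes printed above were not called. Gm35257 was at 1.13 ± 0.21 in Ts1Cje EDL and 1.18 ± 0.077 in WT EDL (SD, n = 3 each), and at 1.23 ± 0.10 in Ts1Cje soleus and 1.40 ± 0.15 in WT soleus (SD, n = 4 each). Its mean change over both muscles was -0.11 (SE 0.085, adjusted p = 0.691), and that of Gm34396 was -0.15 (SE 0.12, adjusted p = 0.726). Whether the change of LOC102637746 differs from theirs was not tested.

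Of the 22 genes named Krtap, 4 passed the detection filter. Krtap19-4 lay at 5.38, 4.60 and 4.49 in Ts1Cje EDL, against 4.36, 4.59 and 4.34 in WT EDL, and at 4.49, 3.38, 4.26 and 4.46 in Ts1Cje soleus, against 4.14, 4.35, 4.41 and 4.15 in WT soleus. Krtap19-5 lay at 3.94, 3.84 and 3.52 in Ts1Cje EDL, against 3.97, 3.81 and 3.63 in WT EDL, and at 3.51, 3.02, 3.24 and 3.75 in Ts1Cje soleus, against 3.63, 3.74, 3.91 and 3.55 in WT soleus. The genotypes overlapped in both muscles for each, with soleus changes of -0.11 and -0.33 (adjusted p = 0.848 and 0.378). Whether these probes read the hair genes or other transcripts was not tested.

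2310079G19Rik, a gene of the keratin cluster, rested on a single array. Its levels were -2.26, -1.68 and -1.85 in Ts1Cje EDL, against -1.54, -1.83 and 5.46 in WT EDL, and -1.90, -1.45, -1.70 and -1.44 in Ts1Cje soleus, against -1.11, -1.06, -1.46 and -1.17 in WT soleus. WT EDL array 3 stood far above the other 13 arrays, and without it the EDL change of -2.63 became -0.24. On that array Krtap19-4 was at 4.34, beside 4.36 and 4.59 on the other WT EDL arrays, and Krtap19-5 at 3.63, beside 3.97 and 3.81. The cause of the high value of 2310079G19Rik was not tested.

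Between muscles, Usp25 differed in both genotypes and 5 other neighbours in 1 or both. In Ts1Cje 3 of the 32 were called between EDL and soleus, with 29.9% of all genes called, of which 2 were higher and 1 lower in EDL, with 17.5% and 12.4% of all genes. In WT 5 were called, with 29.8% of all genes called, of which 3 were higher and 2 lower in EDL, with 20% and 9.76% of all genes. The share among the neighbours was not tested against that of all genes. Usp25, a deubiquitinating enzyme, lay at 3.17, 2.85 and 2.90 in Ts1Cje EDL, against 1.65, 1.92, 1.74 and 1.69 in Ts1Cje soleus, and at 2.90, 2.84 and 2.98 in WT EDL, against 1.86, 1.96, 1.94 and 1.56 in WT soleus. Usp25 was higher in EDL by 2.33-fold in Ts1Cje (log2 change 1.22, SE 0.12, adjusted p = 1.39e-05) and 2.11-fold in WT (log2 change 1.08, SE 0.12, adjusted p = 4.3e-05), and no EDL array overlapped a soleus array. Its further probe rose by 0.94 and 0.98 on the log2 scale (adjusted p = 0.000116 and 9.92e-05), and the call held under each of the 24 alternatives in both genotypes, with changes from 0.94 to 1.32 in Ts1Cje and 0.89 to 1.21 in WT. Its genotype change was 0.062 in EDL and -0.08 in soleus, and its difference between muscles did not itself differ with genotype past the threshold (0.14, SE 0.17).

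**Figure D4:**
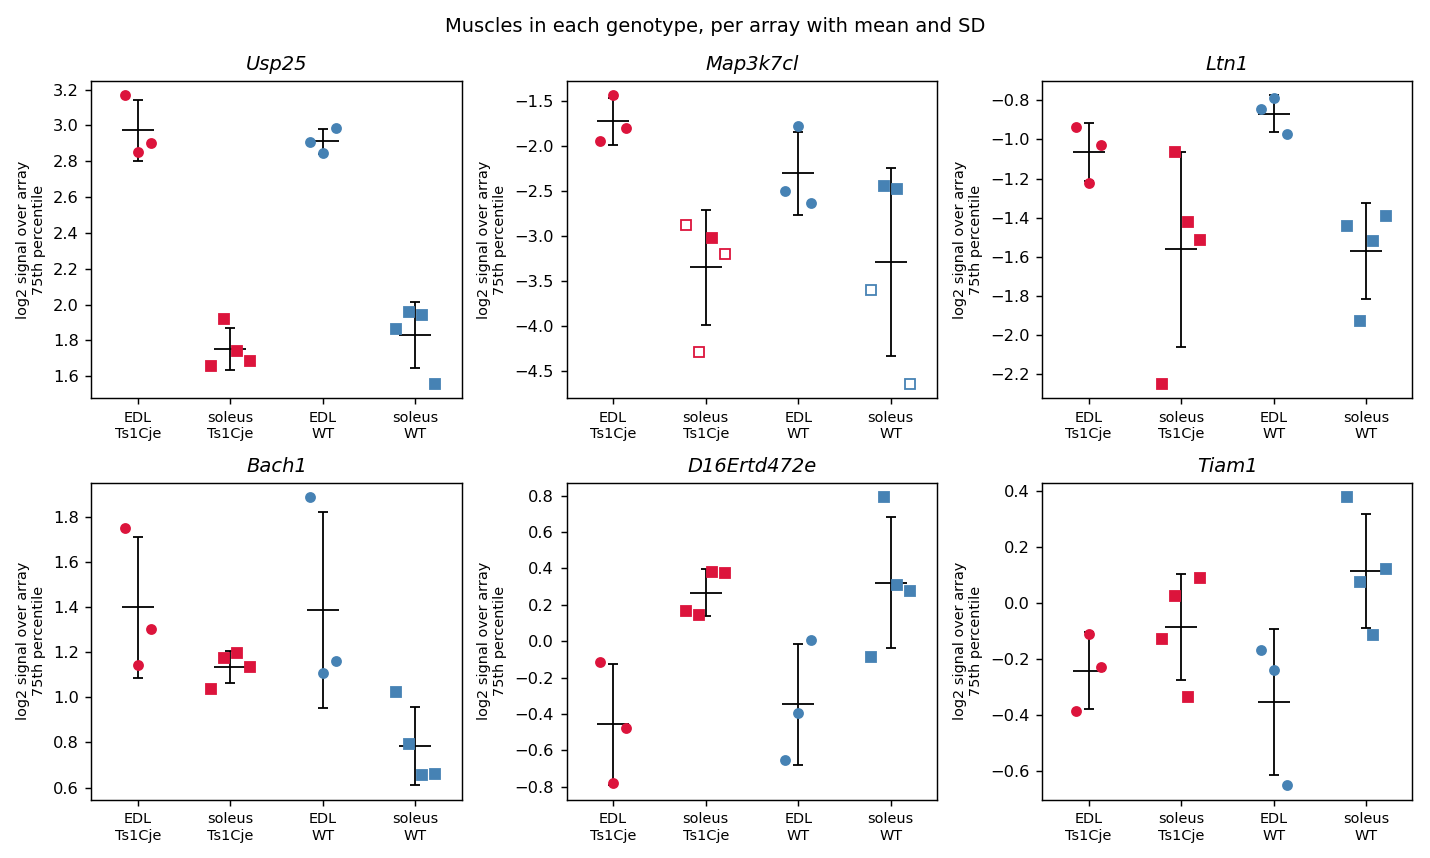
Levels (log2 signal over the array's 75th percentile) of the 6 neighbours called between muscles in at least 1 genotype, 1 point per array, with bars for the mean and SD. Circles are EDL and squares soleus, red is Ts1Cje and blue WT, and open points are arrays on which the probe was not well above background. Usp25 lies at 2.84 or above on every EDL array and at 1.96 or below on every soleus array, and in the other 5 panels muscle groups overlap in at least 1 genotype.

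Map3k7cl, a protein like the C-terminal part of the kinase TAK1, was called in Ts1Cje. Its levels were -1.94, -1.43 and -1.79 in Ts1Cje EDL, against -2.88, -4.28, -3.01 and -3.20 in Ts1Cje soleus (log2 change 1.62, SE 0.49, adjusted p = 0.0242), and -2.49, -1.78 and -2.63 in WT EDL, against -3.60, -2.44, -2.48 and -4.64 in WT soleus (log2 change 0.99, SE 0.49, adjusted p = 0.147). It was well above background on 1 of 4 Ts1Cje soleus arrays and 2 of 4 WT soleus arrays. Map3k7cl thus passed the detection filter only through the EDL groups, in which it was higher, so its call was not independent of that filter. With soleus values near background, the size of its change is uncertain. Without the filter on dim probes the adjusted p in Ts1Cje was 0.053. The Ts1Cje call was lost without any of the 3 Ts1Cje EDL arrays or without Ts1Cje soleus array 2 (adjusted p up to 0.0802), and with the slide as a block (0.334).

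D16Ertd472e, also named Eurl, was lower in EDL in both genotypes. It lay at -0.11, -0.78 and -0.48 in Ts1Cje EDL, against 0.16, 0.14, 0.38 and 0.37 in Ts1Cje soleus (log2 change -0.72, SE 0.21, adjusted p = 0.0223), and at -0.65, -0.40 and 0.0073 in WT EDL, against -0.086, 0.79, 0.31 and 0.27 in WT soleus (log2 change -0.67, SE 0.21, adjusted p = 0.0311). The groups were apart in Ts1Cje and overlapped in WT. Its other kept probes had log2 changes of -0.84 and -0.35 in Ts1Cje and -0.80 and -0.62 in WT. The Ts1Cje call was lost without Ts1Cje EDL array 2 or 3 or Ts1Cje soleus array 3, and the WT call with the replicate number as a block (adjusted p = 0.0515) and without WT EDL array 1 or 2 or WT soleus array 2, 3 or 4.

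Ltn1, Bach1 and Tiam1 were called in WT and not in Ts1Cje, and no difference between the genotypes in this respect passed a test. Ltn1 was higher in EDL by 1.63-fold (log2 change 0.70, SE 0.22, adjusted p = 0.0308), with all WT EDL arrays above all WT soleus arrays, and in Ts1Cje the change was 0.50 (adjusted p = 0.108). Bach1 was higher in WT EDL (log2 change 0.60, SE 0.19, adjusted p = 0.03), and its change in Ts1Cje was 0.26 (adjusted p = 0.317). Tiam1 was lower in WT EDL (log2 change -0.47, SE 0.15, adjusted p = 0.036), and its change in Ts1Cje was -0.15 (adjusted p = 0.474).

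Most of these calls depended on single arrays. WT arrays with the same number varied together across muscles, and with that number as a block the calls of Ltn1 (adjusted p = 0.0841), Bach1 (0.0605) and D16Ertd472e were lost, leaving 2 called neighbours. Bach1 without WT EDL array 1 had a change of 0.35 (adjusted p = 0.143), and its call was also lost without WT soleus array 2, 3 or 4. Ltn1 lost its call without any of the WT EDL arrays or without WT soleus array 2 or 3. Tiam1 lost its call without WT EDL array 2 or 3 or WT soleus array 1, 2 or 4, with 0.163 as the highest adjusted p. With the slide as a block, which rests on the single Ts1Cje soleus array that lay on the EDL slide, Usp25 kept its call in both genotypes and Bach1, Tiam1 and D16Ertd472e lost theirs. With that slide block Ltn1 was called in both genotypes, at 1.18 in Ts1Cje (adjusted p = 0.00567) and 1.62 in WT (adjusted p = 0.00476), and it was also called in Ts1Cje without Ts1Cje soleus array 2 (0.66, adjusted p = 0.0345).

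In Ts1Cje 3 neighbours were higher (Usp25, Map3k7cl and Nrip1) and 2 lower (D16Ertd472e and Gabpa) on every EDL array, with 20.4% and 14.9% of all genes doing so. In WT 4 were higher (Usp25, Bach1, Ltn1 and Usp16) and 2 lower (Tiam1 and LOC102637746), with 25.8% and 13% of all genes doing so. The changes of Nrip1 and Gabpa in Ts1Cje did not pass the test (0.82, adjusted p = 0.071, and -0.34, adjusted p = 0.0869), nor did that of Usp16 in WT (0.32, adjusted p = 0.0676). The other kept probe of Nrip1 gave -0.06 in Ts1Cje and that of Gabpa gave 0.22, so for both genes the probes disagreed in sign. App, with -0.24 in Ts1Cje and 0.13 in WT, was called in neither.

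Partners of the neighbours were set beside them, from lists drawn up by function with earlier results of these data known. In the genotype comparisons, 0 members of the 9 partner lists were called in EDL, in soleus or in the mean of both muscles, next to 0.00706%, 0.247% and 0.289% of all genes. The 13 measured genes of 15 in APP processing had a median change of 0.0025 in EDL and 0.13 in soleus, and the 15 measured of 16 around BACH1 had 0.014 and 0.17. The 12 genes of GABP and its targets had -0.053 and 0.046, and the 19 genes of NRIP1 partners and repressed oxidative genes had -0.042 and 0.16. The 7 measured of 8 CCT subunits had -0.0062 and -0.041, and the 9 genes of ribosome quality control had 0.016 and 0.057. The 10 measured of 12 ADAMTS relatives and substrates had 0.055 and -0.036, the 9 of 11 around Rac1 had -0.036 and 0.19, and the 7 of 8 junction partners had 0.061 and 0.092.

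The mean level of a list over its genes was apart between the soleus genotypes for 3 lists. It was 1.21 to 1.45 in Ts1Cje and 1.12 to 1.18 in WT for APP processing, 2.27 to 2.63 in Ts1Cje and 2.17 to 2.22 in WT around BACH1, and 1.52 to 1.57 in Ts1Cje and 1.61 to 1.69 in WT around GABP. These ranges were not tested, and the median of all genes was 0.071 higher in Ts1Cje soleus.

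Between muscles some partners of each function were called, and their counts stand beside 17.5% of all genes called higher and 12.4% lower in EDL in Ts1Cje, and 20% and 9.76% in WT. Of the 13 APP processing genes, 5 rose and 0 fell in EDL against soleus in Ts1Cje and 6 rose in WT, among them Bace1, the beta-secretase, at 0.94 and 1.23, and Psenen, a gamma-secretase subunit, at 0.64 and 0.77. Of the 19 NRIP1 partner genes, 9 fell and 1 rose in Ts1Cje and 8 fell and 2 rose in WT, with Fabp3, the muscle fatty acid-binding protein, at -1.79 and -1.53 and the nuclear receptor Esrrg at -2.33 and -2.12. Around GABP, of 12 genes 2 rose and 1 fell in Ts1Cje, and 3 rose and 0 fell in WT. These shares were near those of all genes except for the 0 in WT. Ache (acetylcholinesterase) rose by 2.85 and 2.05 and Chrne (an acetylcholine receptor subunit) by 2.36 and 1.82. The gene that fell in Ts1Cje was Gabpb1, of the GABP complex, at -0.41. All 7 CCT subunits were higher in EDL in both genotypes, of which 3 were called in Ts1Cje and 2 in WT, with Cct5 at 0.59 and 0.61. In ribosome quality control 3 rose in Ts1Cje and 5 in WT, with the segregase Vcp at 0.53 and 0.66.

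Around BACH1, of 15 genes 3 rose in each genotype, 2 fell in Ts1Cje and 0 in WT, shares near those of all genes except for the 0 in WT, and the iron exporter Slc40a1 rose by 1.38 and 1.71. Around Rac1 the kinase Pak1 rose by 2.93 and 2.71, as 1 of 1 rise in Ts1Cje and of 3 in WT, and Dock1, an activator of Rac1, was the 1 gene that fell. Of the junction partners the polarity protein Pard3 rose by 0.75 and 0.77 and Jam3, the closest relative of Jam2, fell in EDL with log2 changes of -1.24 and -0.94. Of 10 genes around the ADAMTS proteases, 1 fell in EDL in Ts1Cje (Adamts8) and 2 fell in WT (Adamts8 and the proteoglycan gene Bgn, -0.88). The protease Adamts8 had log2 changes of -1.87 in Ts1Cje and -2.43 in WT.

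The 50 genes of the window that were not tested complete the set. For 35 of them no array gave a signal well above background, and for 15 between 1 and 7 arrays of 14 did. Cxadr, the coxsackievirus and adenovirus receptor of cell junctions, was well above background on 3 arrays at most. The untested genes included 18 named Krtap, the adhesion gene Ncam2, the glutamate receptor gene Grik1, the claudins Cldn8 and Cldn17, and Samsn1, Rbm11, Lipi and Tmprss15. The remaining tested genes, 9530003O04Rik, E330011O21Rik, B130034C11Rik, Gm10228, Krtap20-2 and Krtap8-1, were called in no comparison.

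The window also held 102 probes without a gene symbol, of which 39 were kept in a fit over 25190 probes that was added after seeing the data. By genotype 0 of the 39 were called in EDL, with 0.00794% of all kept probes higher and 0.00397% lower, and 0 in soleus, with 0.115% higher and 0.0476% lower. Between muscles in Ts1Cje 1 was higher and 10 were lower in EDL, with 16.2% and 10.8% of all kept probes called in these directions. Of those 10, 6 lay within chr16:90038086-90127636 (mm9), an interval annotated as long intergenic non-coding RNA on both strands. Of these 6, 5 carried that annotation. The interval held 9 of the 39 kept probes, and 4 of the 10 were among the other 30. In WT 0 were higher and 8 lower, with 16.5% and 9.6% of all kept probes. Of these 8, 4 lay within that interval, 3 of them with its annotation. Probes of the same interval cannot be taken as independent. A probe was kept if it was well above background on every array of any 1 group. Probes dim in EDL could thus enter through soleus, where they were higher, and such calls were not independent of the filter. Of those called in both genotypes, the probe at 88981857 averaged -4.35 in Ts1Cje EDL and -3.97 in WT EDL. The probe at 90008197 averaged -3.36 in Ts1Cje EDL and -3.71 in WT EDL.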

How the data were processed

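Whole-muscle RNA was hybridised to 14 1-colour Agilent arrays, with 25 ng of RNA per sample per the labels' protocols. Per the file headers, the authors read the spots with Feature Extraction 11.5.1.1, whereas the submitters' processing notes name 9.1. The deposited scanner files hold a processed intensity, with background subtracted and no scaling between arrays, the median intensity of spot and background, and other columns that flag spots as saturated or well above background. Probe positions are on mm9 per the file headers.

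Computed here were log2 values of the processed intensity deposited by the authors, minus each array's log2 75th percentile, which was 62.4 to 144. The authors' deposited table of normalized values correlated with these at 1.00 on every array after rounding and gave the window's probes. Probes that failed the scanner's background flag on some array of each of the 4 groups were left out, and the kept probe of highest mean stood for its gene. Of 55681 probes, 25190 were kept, 18516 of them with a symbol. In limma 3.58.1 (R 4.3.3), a model with a mean for each group was fitted to all 14 arrays (10 residual and 2.802 prior degrees of freedom) with 6 comparisons, two-sided, and was tested on simulated data. P-values were adjusted by Benjamini-Hochberg over 14170 genes.

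The members, partner lists and marker lists were chosen with earlier results of these data known. Named in full were genes of known role in the window, members called in any comparison and the 5 of smallest p in each genotype comparison, and up to 4 called genes per partner list, plus Sod1. Remaining members are given by summary. Replicates are separate muscles, described as littermate pairs with no statement of which arrays pair, so that it was checked whether same-numbered arrays deviate together. Correlations of their deviations were 0.116 to 0.401 between EDL genotypes and 0.329 to 0.512 between WT muscles. Both ranges lay above those of differently numbered arrays, which reached -0.030 and 0.184. The correlations were -0.294 to 0.01 between soleus genotypes and -0.156 to 0.117 between Ts1Cje muscles. Differently numbered arrays there reached 0.430 and 0.232. These correlations do not show whether same-numbered arrays share an animal or litter, and the main fit used no pairing. Alternatives were normexp with an offset of 50, taken on the median spot signal because the files used hold no mean signal, quantile scaling, the deposited table, other filters, the mean of probes, a trended robust variance, blocks for number and slide, fits within a muscle or slide, and leaving out each array. Probes as features were added after seeing the data.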

Additional observations from a re-analysis of the deposited data

Results flagged for a closer look

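In 64 groups of 4 soleus arrays, covering the 32 tested neighbours in both genotypes, 5 single arrays stood apart by Dixon's test, which flags about 5% of groups by chance. Gm10228, a predicted gene of the keratin cluster, had a level of 1.33 on Ts1Cje soleus array 4, with the nearest other array of the group at -0.86. Mir99ahg had -2.95 on Ts1Cje soleus array 2, with the nearest at -2.34, and the soleus change of Mir99ahg, which did not pass the test, includes this array. Array 2 was also apart for E330011O21Rik, a long non-coding RNA, at -1.29 with the nearest at -0.95, and for Gm35257 at 1.38 with the nearest at 1.19. In WT soleus, array 2 was apart for the chaperonin gene Cct8, at 3.33 with the nearest at 3.62. Groups of 3 EDL arrays are too small for this test.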

How the results depend on the processing

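The precision is limited by 3 or 4 arrays per group and 50 genes of the window were too dim to be tested. Of 132 named changes recomputed under up to 24 alternatives, 3118 of 3188 values kept their side of the threshold with no sign change of a value over 1 SE in size, 47 called changes lost and 13 gained a call, and 10 values over 1 SE changed sign. A further 149 changes of sign, included in the 3118, were of values within 1 SE of 0. The neighbours called by genotype within a muscle stayed at 0 under every alternative.

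In EDL the genes called numbered 2 with quantile scaling, 2 without the filter, 0 with the filter on all 14 arrays and 3 with the trended robust variance. In soleus they numbered 15 with normexp, 6 without the filter, 23 with the mean of probes, 7 with the replicate block, 18 with the slide block, 1 within slide 2 and 4 with soleus alone. For the mean of both muscles they numbered 22 with normexp, 21 without the filter and 5 with the replicate block, and the called neighbours were 0 with normexp, without the filter, with the filter on all 14 arrays, with the trended robust variance and with the replicate block.

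Between muscles in Ts1Cje, called neighbours numbered 1 without the filter and 7 with the replicate block, whose same-numbered arrays did not vary together. Called genes there numbered 2070 with the slide block. In WT, called genes numbered 2281 with normexp and 1368 with the slide block. Called neighbours in WT were 3 with normexp, 1 without the filter, 2 with the replicate block and 2 with the slide block, where their median was -0.14. The 4 neighbours gained with the replicate block in Ts1Cje were Nrip1, Rwdd2b, Krtap19-4 and Gm34396, and beside these and the calls given in the report it changed no other call of a neighbour. Among values over 1 SE in size, signs turned between muscles in Ts1Cje for Adamts5 (-0.0068, mean of probes) and, with normexp, for Cct8 (-0.041), N6amt1 (0.065) and LOC102637746 (0.089). In WT they turned for Nrip1 (-0.038) and Hspa13 (-0.38) with the slide block, and for LOC102637746 (0.057) and Mir99ahg (0.047) with normexp. Normexp adds an offset of 50 to each signal, next to array 75th percentiles of 62.4 to 144. Log2 changes of dim probes shrink with it by construction. Some of the other alternatives lose residual samples or genes. The part of these in the changes above was not tested.

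Leaving out each array in turn gave 1 to 3 called genes in EDL, 10 to 38 in soleus, 25 to 41 for the mean and 0 to 1 for the difference of effects, with 0, 0, 1 and 0 called neighbours throughout. Between muscles it gave 2956 to 4218 genes and 1 to 4 neighbours in Ts1Cje, and 3222 to 4328 genes and 1 to 7 neighbours in WT. The neighbours' median ran from -0.061 to 0.042 in EDL, from -0.078 to -0.04 in soleus, from -0.012 to 0.02 for the mean, from -0.018 to 0.054 for the difference, from -0.069 to 0.047 in Ts1Cje muscles and from -0.0044 to 0.068 in WT muscles. For 2310079G19Rik, without WT EDL array 3 the difference of effects was 0.18 (range -3.47 to 0.18) and the change between WT muscles -0.48 (range -0.48 to 3.16).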

Other observations

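Among the probes of the window without a gene symbol, one starting at 84706005 (mm9) on the plus strand, annotated in the files as a long intergenic non-coding RNA, averaged 0.51 ± 0.19 in Ts1Cje EDL (SD, n = 3) and 2.01 ± 0.20 in Ts1Cje soleus (SD, n = 4), and 0.53 ± 0.22 in WT EDL (SD, n = 3) and 2.06 ± 0.22 in WT soleus (SD, n = 4). Another such probe on the minus strand at 90008197 averaged -3.36 ± 1.09 in Ts1Cje EDL (SD, n = 3) and -0.34 ± 0.58 in Ts1Cje soleus (SD, n = 4), and -3.71 ± 0.56 in WT EDL (SD, n = 3) and -0.44 ± 0.30 in WT soleus (SD, n = 4). In both, every soleus array was above every EDL array, and 14.9% of all genes in Ts1Cje and 13% in WT were lower on every EDL array. These probes were picked from those called between muscles, and the muscles lay largely on separate slides. The second probe was dim in EDL, at -4.61 to -2.65 in Ts1Cje and -4.35 to -3.32 in WT. Whether it was well above background there is not given, so the size of its difference is uncertain. It could have passed the detection filter through soleus alone, where it was higher, so its call may not be independent of that filter.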
